A study of Homo sapiens with 2 samples.

Results

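The mRNAs of 10 lipid droplet proteins and droplet lipases were compared between Huh7 cells treated with homochlorcyclizine and Huh7 cells treated with DMSO. The set holds the perilipins PLIN2, PLIN3, PLIN4 and PLIN5, the CIDE proteins CIDEC and CIDEB, the patatin-like lipases PNPLA2 and PNPLA3, and the lipase inhibitors G0S2 and HILPDA. These genes were selected by name, with the values of this same contrast already known, so their ratios are a description and not a test. All 10 were found among the 19927 gene symbols of the deposited count table, and all 10 had a mean of at least 1 CPM (a count scaled to the size of its library by the TMM method), the limit for calling a gene measured. In all, 12353 genes were measured.

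Huh7 is an established human hepatocellular carcinoma line. The cells were treated for 48 h with homochlorcyclizine dihydrochloride, an antihistamine of the piperazine type that blocks the histamine H1 receptor, or with DMSO, the solvent control. Each group is 1 library of poly(A)-selected mRNA with no second culture, and the dose was not given in the sources used here. Per the series title, the comparison concerns the effect of the compound on gene expression.

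Lipid droplets store triglycerides and sterol esters in a core that is bounded by a phospholipid monolayer. Perilipins coat that surface and limit the access of lipases, while CIDE proteins gather at contacts between droplets and promote the transfer of lipid into the larger droplet. PNPLA2, also called ATGL, starts triglyceride breakdown, with ABHD5 as its activator and G0S2 and HILPDA as its inhibitors. Hepatocytes use the stored lipid for oxidation and for the assembly of very low density lipoprotein (VLDL).

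The homochlorcyclizine library held 40791119 counts and the DMSO library 38133894. All 11 hepatocyte and Huh7 markers were measured, among them ALB and AFP, and none was 2-fold higher or lower. Of 8 adipocyte markers, ADIPOQ, LEP, FABP4, LPL and CIDEA had 0 counts in each library. At these depths 0 counts leave room for 0.0737 CPM in the homochlorcyclizine library and 0.0785 CPM in the DMSO library. CFD, complement factor D, was the 1 measured adipocyte marker, at 9.43 CPM in the homochlorcyclizine library and 10.5 CPM in the DMSO library (ratio 0.895, 0.776 to 1.03). Summed over the lists, the adipocyte markers came to 9.65 and 10.8 CPM, macrophage markers to 2.95 and 4.32 CPM, fibroblast and stellate cell markers to 37.9 and 31.8 CPM and endothelial markers to 5.92 and 12.0 CPM in the homochlorcyclizine and the DMSO library. Among the measured markers, PECAM1 was the 1 past 2-fold, at a ratio of 0.483 (0.409 to 0.566). COL3A1, a fibroblast collagen under the 1 CPM limit, had 5 counts in the homochlorcyclizine library and 43 in the DMSO library (ratio 0.129, 0.0337 to 0.275). The part of these markers in the results was not tested.

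CIDEC, PLIN2 and PNPLA3 were at least 2-fold higher in the homochlorcyclizine library and CIDEB was at least 2-fold lower. By the same rule, a ratio of 2-fold or more with a 95% counting interval that excludes 1, 5.81% of all measured genes were higher and 5.10% were lower. In either direction 4 of the 10 genes passed, beside 10.9% of all measured genes. CIDEB met the 1 CPM limit on its mean only through the DMSO library, at 1.99 CPM beside 0.909 CPM in the homochlorcyclizine library. A filter of 5 CPM removes it, and then none of the 10 is lower. With a limit of 1.5-fold the same 4 genes passed, 3 higher and 1 lower, beside 14.1% of all measured genes higher, 14.1% lower and 28.1% in either direction. Of the 10 genes, 7 had a ratio above 1, beside 48.9% of all measured genes. The interval lay wholly above 1 for the same 7 genes (37.8% of all measured genes) and wholly below 1 for CIDEB (40.0%). Since the genes were chosen on this contrast, these counts are a description. PLIN3, PLIN4, PNPLA2 and HILPDA lay between 1.07-fold and 1.40-fold, with intervals above 1. PLIN5 and G0S2 had intervals that held 1. The median log2 ratio of the 10 genes was 0.44, against -0.01 over all measured genes. CIDEB at a ratio of 0.464 lay nearest inside the 2-fold limit and PNPLA2 at 1.40 nearest outside it. In these bulk libraries, fewer cells that express a gene and less of its RNA per cell cannot be told apart.

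**Figure D1:**
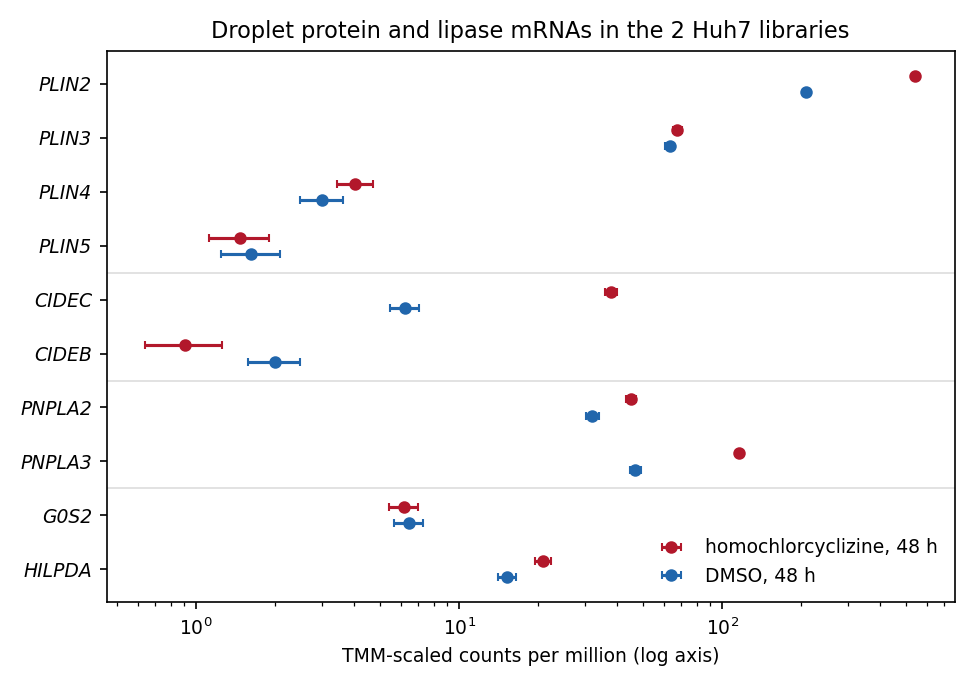
TMM-scaled counts (CPM, log axis) of the 10 genes in the homochlorcyclizine library (red) and the DMSO library (blue). Each point is 1 library and each bar its exact 95% Poisson interval for counting error. CIDEC, PLIN2 and PNPLA3 lie to the right in the homochlorcyclizine library and CIDEB to the left, while the bars of both libraries overlap for PLIN3, PLIN4, PLIN5 and G0S2.

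The perilipins differed mainly in PLIN2. PLIN2, also known as adipophilin and the main droplet coat protein of hepatocytes, lies on chromosome 9 (19108388 to 19127492, minus strand, RefSeq coordinates on GRCh38.p14 as for all genes here). It had 21959 counts in the homochlorcyclizine library and 7941 in the DMSO library, which is 539 CPM (532 to 547) and 208 CPM (203 to 212). The ratio was 2.60 (2.53 to 2.66). On the per-length FPKM scale PLIN2 ranked number 200 of all gene symbols in the homochlorcyclizine library and number 635 in the DMSO library.

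PLIN3, also known as TIP47, is found in the cytosol and on nascent droplets, and lies on chromosome 19 (4838341 to 4867667). It had 2747 counts in the homochlorcyclizine library and 2413 in the DMSO library. Its level of 67.5 CPM (65.0 to 70.1) in the homochlorcyclizine library and 63.1 CPM (60.7 to 65.7) in the DMSO library gave a ratio of 1.07 (1.01 to 1.13), and the intervals of the levels overlap.

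PLIN4 and PLIN5 had few counts. PLIN4, an adipose and muscle perilipin with a long amphipathic repeat region, had 164 counts in the homochlorcyclizine library and 115 in the DMSO library. The ratio was 1.34 (1.05 to 1.71). PLIN5, which tethers droplets to mitochondria in oxidative tissues, had 60 counts in the homochlorcyclizine library and 62 in the DMSO library, with a ratio of 0.910 (0.626 to 1.32). Differences within that interval were not detectable at this depth. PLIN4 (4502192 to 4518486) and PLIN5 (4522531 to 4535224) are neighbours on the minus strand of chromosome 19, separated by 4066 bases in GENCODE release 29. PLIN1, the adipocyte perilipin, had 4 counts in each library.

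The composition of the perilipin mRNA pool differed between the libraries. By FPKM, which divides by gene length and library total, PLIN2 made up 90.2% of the summed perilipin level in the homochlorcyclizine library (89.9% to 90.6%) and 79.2% in the DMSO library (78.4% to 79.9%). PLIN3 made up 9.40% in the homochlorcyclizine library and 20.0% in the DMSO library. The PLIN2 level was 9.60 times that of PLIN3 in the homochlorcyclizine library and 3.95 times in the DMSO library. This ratio within a library does not depend on the scaling between libraries, and it was 2.43-fold higher in the homochlorcyclizine library (2.29 to 2.58).

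The CIDE genes differed in opposite directions, with limits on the CIDEB value that are given below. CIDEC, also known as FSP27, which drives the growth of large droplets in adipocytes and fatty liver, lies on chromosome 3 (9866710 to 9880253, minus strand). It had 1543 counts in the homochlorcyclizine library and 237 in the DMSO library, which is 37.9 CPM (36.0 to 39.8) and 6.20 CPM (5.44 to 7.04). The ratio was 6.09 (5.33 to 7.04), number 32 from the top among the 12353 measured genes. In level per length it was number 2382 of all gene symbols in the homochlorcyclizine library and number 8089 in the DMSO library.

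CIDEB, which in hepatocytes takes part in the lipidation of VLDL, lies on chromosome 14 (24305187 to 24311435, minus strand). It had 37 counts in the homochlorcyclizine library and 76 in the DMSO library, which is 0.909 CPM (0.640 to 1.25) and 1.99 CPM (1.57 to 2.49). The ratio was 0.464 (0.300 to 0.686). CIDEB is the least certain of the 10 values, because its counts are few and its locus is shared. In GENCODE, 61.1% of its 3198 exonic bases also lie in exons of NOP9 and 39.9% in exons of LTB4R2, both on the opposite strand, and no source used here states the strand setting of the counting. NOP9, a ribosome biogenesis factor, had 1444 counts in the homochlorcyclizine library and 1716 in the DMSO library (ratio 0.790, 0.736 to 0.848). LTB4R2, a leukotriene B4 receptor, had 19 counts in the homochlorcyclizine library and 30 in the DMSO library (ratio 0.607, 0.316 to 1.09). If the counting did not use strand, reads of the 3 genes cannot be told apart where their exons coincide. The part of this overlap in the CIDEB ratio was not tested. Smaller overlaps with gene models that were not analysed here touch 21.7% of the exonic bases of PLIN5 on the same strand, 17.8% of PLIN3 and 10.4% of PNPLA2 on the opposite strand, and 8.45% and 8.99% of HILPDA for a pair of models on the same strand. CIDEA, the remaining CIDE gene, which is expressed in brown fat, had no count in either library.

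Per length, CIDEC stood at 79.8 times the CIDEB level in the homochlorcyclizine library and at 5.96 times in the DMSO library. That ratio was 13.4-fold higher in the homochlorcyclizine library (8.82 to 20.3), with the reservation about shared exons just given. CIDEC also differed relative to PLIN2, at 0.109 of the PLIN2 level in the homochlorcyclizine library and 0.0462 in the DMSO library, a change of 2.35-fold (2.05 to 2.71).

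**Figure D2:**
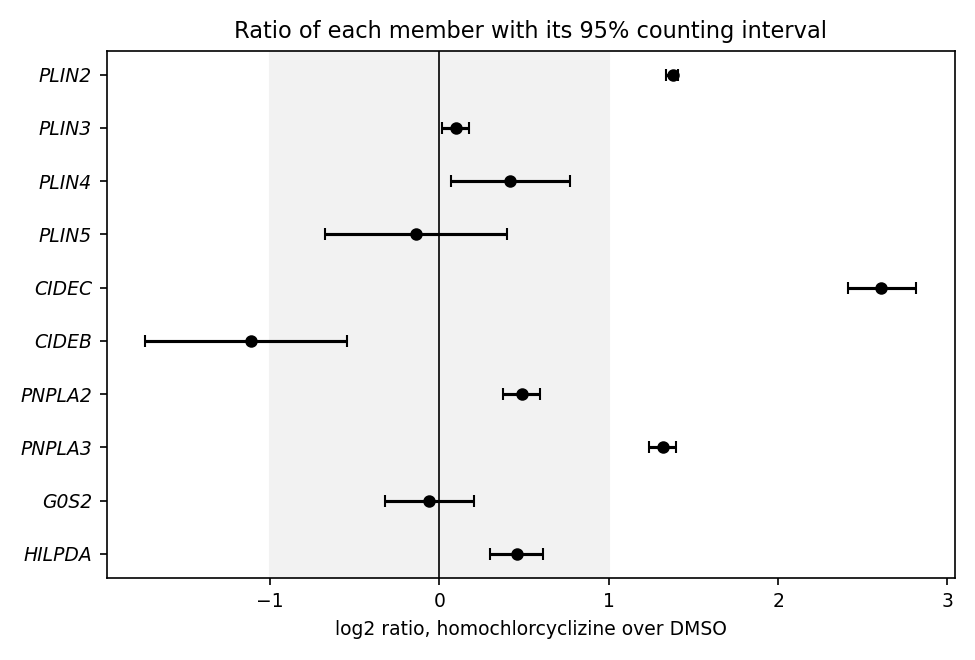
Log2 ratio of homochlorcyclizine over DMSO for each of the 10 genes, with the exact 95% counting interval as a bar and the range under 2-fold in grey. CIDEC at 2.61, PLIN2 at 1.38 and PNPLA3 at 1.32 lie above the grey range and CIDEB at -1.11 lies below it, with a bar that reaches into it.

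The sequences upstream of the start sites of these 3 genes are shown because CIDEC and PLIN2 were higher and CIDEB was lower. They come from RefSeq on GRCh38.p14 and cover the last 120 bases before each annotated start, read on the minus strand from 5′ to 3′. CIDEC and CIDEB have a pair of annotated starts each. Capitals mark matches to the motifs described next, on either strand.
PLIN2, chr9:19127493-19127612: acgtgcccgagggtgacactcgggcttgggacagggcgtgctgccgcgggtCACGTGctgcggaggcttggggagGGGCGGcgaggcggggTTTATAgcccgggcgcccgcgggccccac
CIDEC, upstream start, chr3:9880254-9880373: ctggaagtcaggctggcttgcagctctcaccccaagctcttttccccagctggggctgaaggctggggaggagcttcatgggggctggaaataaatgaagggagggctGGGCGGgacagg
CIDEC, downstream start, chr3:9878813-9878932: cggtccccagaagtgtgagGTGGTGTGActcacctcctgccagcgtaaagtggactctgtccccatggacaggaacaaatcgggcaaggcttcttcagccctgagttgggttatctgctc
CIDEB, upstream start, chr14:24311436-24311555: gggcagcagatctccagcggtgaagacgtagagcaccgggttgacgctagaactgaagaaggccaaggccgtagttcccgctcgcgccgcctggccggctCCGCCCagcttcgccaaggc
CIDEB, downstream start, chr14:24307978-24308097: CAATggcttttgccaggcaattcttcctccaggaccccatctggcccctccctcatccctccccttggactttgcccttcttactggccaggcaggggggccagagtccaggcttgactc

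Promoter windows from 250 bases before to 50 bases after the start were searched on both strands in 22199 protein-coding entries. Entries were matched for 8 of the 10 genes, not for HILPDA and PNPLA3, and gave 10 windows. PLIN2 held the E-box CACGTG at position -69, which occurs in 8.34% of all windows, and TATAAA on the other strand at position -29, which occurs in 9.47%. The SREBP-type motif TCACNCCAC, present in 1.13% of all windows, matched at the downstream CIDEC start at position -101 and at PNPLA2 at position -153. The nuclear receptor motif AGGTCA, present in 11.9% of windows, matched only at PNPLA2 among these genes. Its direct repeat with 1 base between, the form bound by PPAR receptors, matched in none of the 10 windows and in 0.0225% of all windows. The FOXO motif GTAAACA (2.85% of windows) matched in none, and the ATF4-type motif TGATGNAA (2.69%) matched at PLIN4. The GC box GGGCGG (56.3%) was found in 6 windows and CCAAT (34.7%) in 4, those of PLIN3, PLIN4 and PLIN5 and the downstream start of CIDEB, where the first letter of the match lies just before the printed stretch. AGGTCA is part of the direct repeat, so those motifs overlap. A match describes the letters of these windows only, and the data hold no measure of factor binding.

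Both lipase genes had ratios above 1, and PNPLA3 passed 2-fold. PNPLA3, or adiponutrin, a droplet protein that binds ABHD5 and restrains PNPLA2, lies on chromosome 22 (43923805 to 43947582, plus strand). It had 4736 counts in the homochlorcyclizine library and 1786 in the DMSO library, which is 116 CPM (113 to 120) and 46.7 CPM (44.6 to 49.0). The ratio was 2.49 (2.36 to 2.63). Per length, PLIN2 stood at 6.91 times PNPLA3 in the homochlorcyclizine library and 6.63 times in the DMSO library, a change of 1.04-fold whose interval held 1 (0.982 to 1.11).

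PNPLA2, the first lipase of triglyceride breakdown, lies on chromosome 11 (818914 to 825573, plus strand). It had 1834 counts in the homochlorcyclizine library and 1228 in the DMSO library, which is 45.1 CPM (43.0 to 47.2) and 32.1 CPM (30.4 to 34.0). The ratio of 1.40 (1.30 to 1.51) was under the 2-fold limit. Per length, PNPLA3 stood at 2.27 times PNPLA2 in the homochlorcyclizine library and at 1.28 times in the DMSO library, a change of 1.78-fold (1.62 to 1.94).

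Neither lipase inhibitor passed 2-fold. G0S2, a small protein that binds PNPLA2 and blocks its activity, lies on chromosome 1 (209675412 to 209676390). It had 251 counts in the homochlorcyclizine library and 246 in the DMSO library, which is 6.17 CPM (5.43 to 6.98) and 6.44 CPM (5.66 to 7.29). The intervals of the levels overlap, and the ratio was 0.958 (0.800 to 1.15). HILPDA, a hypoxia-induced droplet protein that also inhibits PNPLA2, lies on chromosome 7 (128455878 to 128458418) and had 849 counts in the homochlorcyclizine library and 581 in the DMSO library. Its level of 20.9 CPM (19.5 to 22.3) in the homochlorcyclizine library and 15.2 CPM (14.0 to 16.5) in the DMSO library gave a ratio of 1.37 (1.23 to 1.53).

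Set against PNPLA2 per length, G0S2 and ABHD5 were lower in the homochlorcyclizine library. G0S2 was at 0.377 of the PNPLA2 level in the homochlorcyclizine library and at 0.552 in the DMSO library, a change of 0.683 (0.565 to 0.826). ABHD5, the PNPLA2 activator, had 42.4 CPM in the homochlorcyclizine library and 40.3 CPM in the DMSO library (ratio 1.05, 0.982 to 1.13). Relative to PNPLA2 it was at 0.716 in the homochlorcyclizine library and 0.954 in the DMSO library, a change of 0.751 (0.680 to 0.830). HILPDA was at 0.856 of PNPLA2 in the homochlorcyclizine library and 0.875 in the DMSO library, a change of 0.978 with an interval that held 1 (0.861 to 1.11). These are proportions of mRNA, and no protein was measured.

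**Figure D3:**
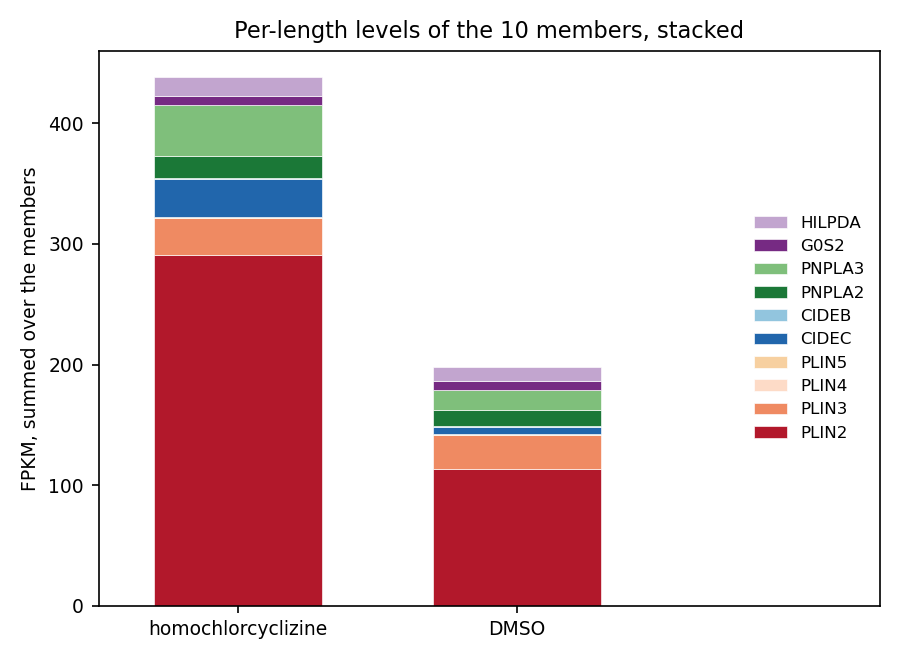
Deposited FPKM of the 10 genes stacked for the homochlorcyclizine library (left) and the DMSO library (right), 1 library each. The stacks reach 439 and 198 FPKM, and PLIN2 is the largest block in both. PLIN4, PLIN5 and CIDEB are too low to be seen.

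Per length, the 10 genes summed to 439 FPKM in the homochlorcyclizine library and 198 FPKM in the DMSO library, and without PLIN2 to 147 and 85.1 FPKM. The order of levels in the homochlorcyclizine library was PLIN2 (291 FPKM), PNPLA3 (42.2), CIDEC (31.7), PLIN3 (30.3), PNPLA2 (18.6), HILPDA (15.9), G0S2 (7.02), PLIN4 (0.613), PLIN5 (0.596) and CIDEB (0.398). In the DMSO library it was PLIN2 (113 FPKM), PLIN3 (28.5), PNPLA3 (17.0), PNPLA2 (13.3), HILPDA (11.7), G0S2 (7.36), CIDEC (5.21), CIDEB (0.874), PLIN5 (0.658) and PLIN4 (0.459). CIDEC stood at place 3, with an interval that overlapped PLIN3, in the homochlorcyclizine library, and at place 7, below G0S2, in the DMSO library. PLIN4, PLIN5 and CIDEB followed each other at the bottom of both orders with overlapping intervals between neighbours, and PNPLA2 and HILPDA overlapped in the DMSO library.

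**Figure D4:**
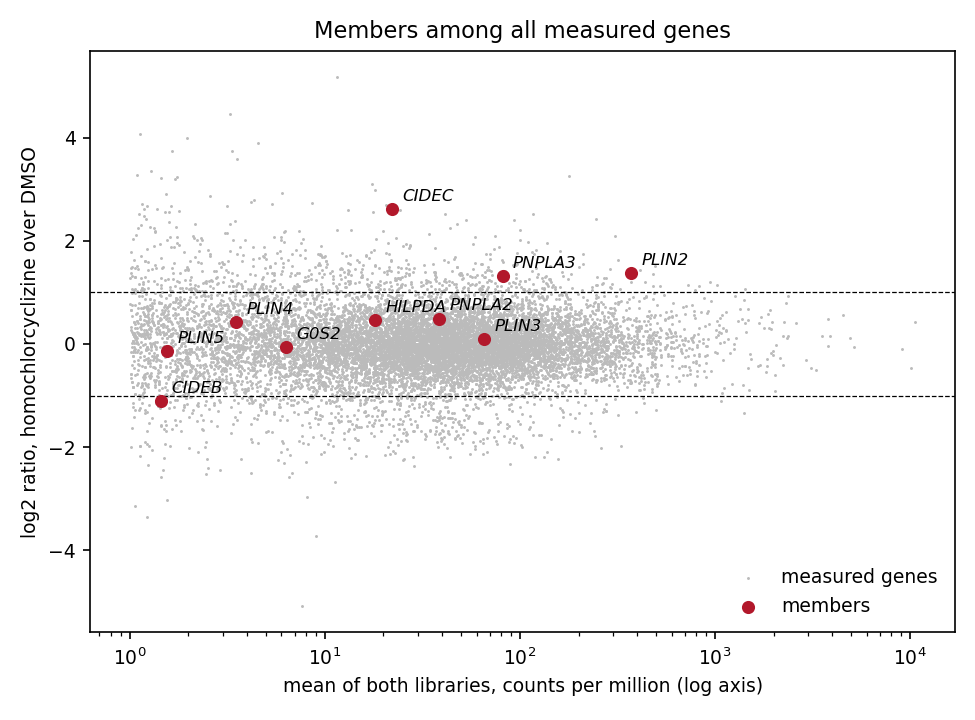
Log2 ratio of homochlorcyclizine over DMSO against the mean level of both libraries (CPM, log axis) for the 12353 measured genes (grey) and the 10 droplet genes (red). The dashed lines mark 2-fold. CIDEC, PNPLA3 and PLIN2 lie above the upper line at moderate to high levels, and CIDEB lies at the lower line among the genes of fewest counts.

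The genes that flank the 10 in the genome were compared in the same way. Of 18 distinct neighbours, 13 were measured and none of these was 2-fold higher or lower, beside 10.9% of all measured genes in either direction. None of the 13 flanks PNPLA3, whose neighbours PNPLA5 (0 counts in each library) and PARVB (23 in each) were under the filter. The log2 ratios of the 13 ran from -0.51 to 0.87 with a median of -0.02. Beside CIDEC, JAGN1 had a ratio of 1.16 (1.10 to 1.21) and TTLL3 was under the filter with 32 counts in the homochlorcyclizine and 37 in the DMSO library. Beside PLIN2, HAUS6 had a ratio of 0.702 (0.657 to 0.751) and DENND4C one of 1.37 (1.28 to 1.46). LAMB3, next to G0S2, had the highest ratio at 1.83 (1.73 to 1.94). SAMM50, which shares 4.58% of the exonic bases of PNPLA3 on the same strand in GENCODE, had a ratio of 0.725 (0.689 to 0.762). HDGFL2 shares 0.492% of those of PLIN4 and had a ratio of 0.768 (0.729 to 0.809).

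Other genes of droplet formation and lipid handling were read from 11 lists, which hold 118 distinct genes outside the 10. Of the 96 measured, 10 were higher by the 2-fold rule and 2 were lower, which is 10.4% and 2.08% beside the 5.81% and 5.10% of all measured genes. A ratio above 1 was found for 66.7% of the 96, beside 48.9% of all measured genes. The median log2 ratio of the 96 was 0.25. The counts of the single lists below are to be read beside the same shares of all measured genes.

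Genes that build droplets at the endoplasmic reticulum had no member past 2-fold among 6 measured, and 5 exceeded 1, with a median of 0.44 in log2. LDAF1, the partner of seipin, was just under the limit at 6.04 CPM in the homochlorcyclizine library and 3.01 CPM in the DMSO library (ratio 2.00, 1.60 to 2.53). FITM2, ACSL3 and TMEM41B had ratios of 1.40, 1.38 and 1.33.

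Triglyceride and sterol ester synthesis had 17 measured genes, of which 2 passed 2-fold upward, none downward, and 10 exceeded 1, and the median was 0.24 in log2. The phosphatidate phosphatase LPIN1 was at 143 CPM in the homochlorcyclizine library and 49.7 CPM in the DMSO library (ratio 2.87, 2.72 to 3.02), and the monoacylglycerol acyltransferase MOGAT1 at 2.73 CPM in the homochlorcyclizine library and 1.28 CPM in the DMSO library (ratio 2.10, 1.51 to 3.04). LPIN2 and AGPAT2 had ratios of 1.87 and 1.59. The enzymes of the last step were below 1, DGAT1 at a ratio of 0.859 (0.809 to 0.912) and DGAT2 at 0.801 (0.749 to 0.858).

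Among 10 measured lipid hydrolases with ABHD5, none passed 2-fold, 7 exceeded 1 and the median was 0.13 in log2. CES1, a carboxylesterase, and LIPA, the lysosomal acid lipase, had ratios of 1.59 and 1.54, ABHD6 one of 1.28, and AADAC, an arylacetamide deacetylase of the endoplasmic reticulum, one of 0.634 (0.611 to 0.658). MGLL, which cleaves monoacylglycerol, had a ratio of 0.808 (0.780 to 0.836). LIPE, the hormone-sensitive lipase that follows PNPLA2 in adipocytes, had only 5 counts in the homochlorcyclizine library and 6 in the DMSO library. Of the other patatin-like phospholipases, PNPLA6, PNPLA8 and PNPLA4 were measured, with ratios of 1.70, 1.43 and 0.992 and a median log2 ratio of 0.52.

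Other proteins of the droplet surface had 14 measured genes, of which 2 passed 2-fold upward, none downward, and 10 exceeded 1, and the median was 0.25 in log2. DHRS3, a retinal reductase, was at 70.2 CPM in the homochlorcyclizine library and 32.8 CPM in the DMSO library (ratio 2.14, 2.01 to 2.29), and the lipid transfer protein VPS13C at 147 CPM in the homochlorcyclizine library and 73.0 CPM in the DMSO library (ratio 2.01, 1.92 to 2.10). LSS, lanosterol synthase, was just under the limit at 1.99 (1.95 to 2.03), and HSD17B11 had a ratio of 1.52.

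**Figure D5:**
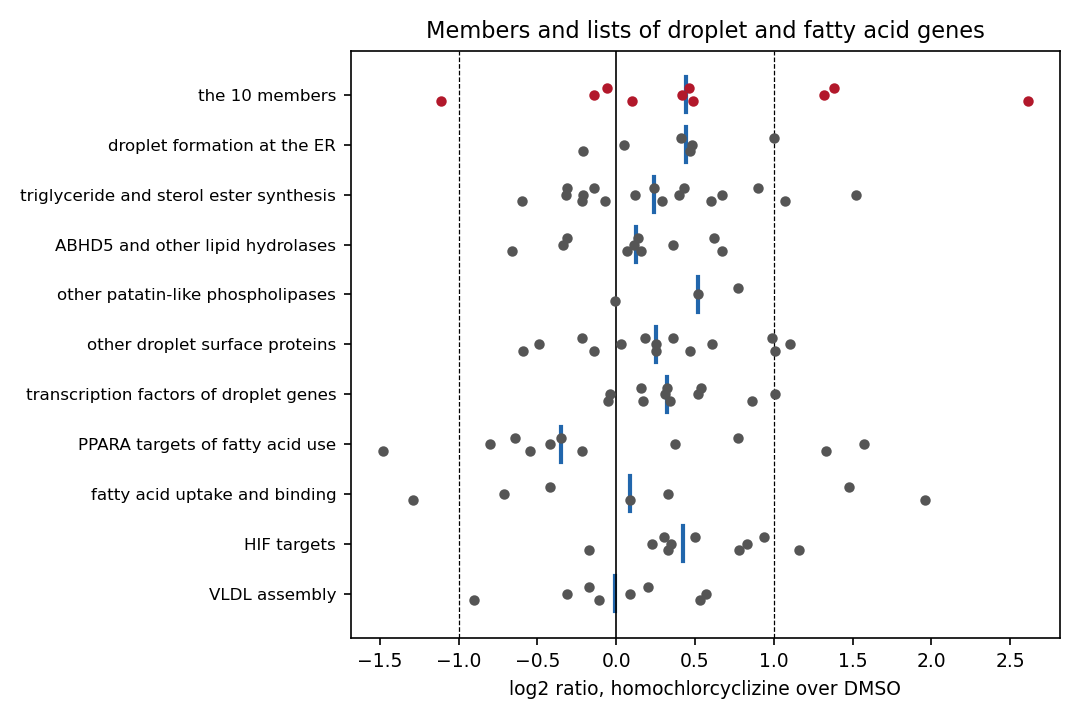
Log2 ratio of homochlorcyclizine over DMSO for the measured genes of each list, with the 10 droplet genes in red at the top, other lists in grey and the list median as a blue line. Dashed lines mark 2-fold. The medians run from -0.35 for PPARA targets to 0.52 for the other patatin-like phospholipases, and the 10 droplet genes have a median of 0.44.

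Transcription factors that act on droplet genes had 11 measured members, 1 past 2-fold upward and 9 that exceeded 1, with a median of 0.32 in log2. FOXO1 was at 20.0 CPM in the homochlorcyclizine library and 9.92 CPM in the DMSO library (ratio 2.02, 1.78 to 2.29). MLXIPL, the carbohydrate-responsive factor ChREBP, had a ratio of 1.82 (1.70 to 1.95), CREB3L3 one of 1.45 and PPARG one of 1.44. PPARA targets of fatty acid use had 11 measured members, of which 2 passed 2-fold upward, 1 downward and 4 exceeded 1, and the median was -0.35 in log2. CPT1A and ACSL1, which commit fatty acids to transport and activation, had ratios of 2.96 (2.84 to 3.09) and 2.52 (2.38 to 2.67). EHHADH, an enzyme of peroxisomal fatty acid oxidation, had a ratio of 0.576 (0.540 to 0.614).

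Fatty acid uptake and binding genes had 7 measured members, of which 2 passed 2-fold upward and 1 downward, and the median was 0.09 in log2. VLDLR, a lipoprotein receptor, had a ratio of 3.90 (3.46 to 4.42) and the fatty acid transporter SLC27A1 one of 2.80 (1.96 to 4.19). The fatty acid binding protein FABP5 was at 96.0 CPM in the homochlorcyclizine library and 234 CPM in the DMSO library (ratio 0.410, 0.395 to 0.426), and SLC27A2 had a ratio of 0.610. Of 10 measured HIF targets, a list taken because HILPDA is one, KDM3A was 2-fold higher at a ratio of 2.24 (2.13 to 2.35), 9 exceeded 1 and the median was 0.42 in log2. VEGFA, PDK1 and SLC2A1 had ratios of 1.92, 1.78 and 1.72. In VLDL assembly, where CIDEB acts, none of 8 measured genes passed 2-fold and the median was -0.01 in log2. TM6SF2 had the lowest ratio, 0.537 (0.470 to 0.612), P4HB one of 0.805, and MIA2 and APOB ratios of 1.48 and 1.44.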

How the data were processed

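The authors deposited raw counts per gene symbol for both libraries and FPKM values per library. Per the submitters' processing notes the build was hg38. Aligner, counter, strand setting and annotation: not given in the sources used here. FPKM ratios and ratios of counts per total differed by at most 3.13e-05% in 14778 genes, so both hold the same measurement.

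Library sizes were scaled with TMM (edgeR 4.0.16, R 4.3.3). Log2 ratios used a prior count of 1, and ratios have exact 95% Clopper-Pearson intervals conditional on the summed count. Levels have Poisson intervals, and changes of a proportion between genes have normal intervals on the log scale. Intervals and floors (3 counts) cover counting error only, and they treat each count as an independent molecule. PCR copies are not independent molecules, so the intervals may be too narrow even for counting error. Each group has 1 library, so no test between groups was made. The calling rule was also run on simulated counts with counting error only. That run holds no spread between cultures, so it cannot show how the calls would repeat in a second culture. Python 3.11.15, numpy 2.4.6, pandas 2.3.3, scipy 1.17.1 and matplotlib 3.10.9 were used.

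FABP1 is in 2 lists, and METTL7A and METTL7B were matched under their RefSeq symbols TMT1A and TMT1B. The 10 genes and the lists were chosen with earlier results of these data known. Named from each list are up to 4 measured genes with the largest absolute log2 ratio, plus PLIN1, CIDEA, ABHD5, LIPE, MGLL, DGAT1, DGAT2 and genes that flank or overlap the 10, except a listed gene that is not reported here. Coordinates are those of RefSeq GRCh38.p14, counted from 1, and exon overlaps and strands those of GENCODE release 29, on the same assembly. Protein sequences were not used here. Alternatives were other scalings, a prior count of 5, other filters, a 1.5-fold limit and the FPKM values.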

Additional observations from a re-analysis of the deposited data

How the results depend on the processing

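The log2 ratios of the 10 genes kept their sign and stayed within their counting intervals under scaling by total counts, DESeq2 1.42.0 size factors, a prior count of 5 and the deposited FPKM. The FPKM ratios repeat the scaling by total counts without a prior count, so they are not a separate check. The widest range was that of CIDEB, -1.14 to -1.03. The count of 3 genes at least 2-fold higher was the same in each alternative that was run, 1.5-fold included. The count of 1 lower gene became 0 with a filter of 5 CPM, which removes CIDEB. With a limit of 1.5-fold, 24 of the 96 measured genes of the pooled lists were higher and 9 lower. Of all measured genes, 14.1% were higher and 14.1% lower by that limit. LDAF1 passed 2-fold with DESeq2 size factors, and with total counts only 1 of the surface proteins did. Without a filter, the median log2 ratio of the PPARA targets was 0.07 and that of fatty acid uptake genes -0.42, and with a filter of 5 CPM the list of uptake genes was at -0.17, in each case because other genes entered or left the list. No paired analysis was possible because each group has 1 library. Depth limits CIDEB, PLIN5 and PLIN4, and no spread between cultures was measured, so no ratio has a replicate check.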
